A study of Mus musculus with 3 samples.

Results

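Imprinted genes with roles in growth, 10 in all, were examined in PyMT tumor cultures treated with RANK ligand (RL): H19, Igf2, Igf2r, Cdkn1c, Plagl1, Peg3, Mest, Grb10, Meg3 and Dlk1. They were chosen because H19 was lower with RL on these same arrays, so the log2 RL over control of the members was selected on and is given as a description. Calls of the members on this contrast are printed below, and nothing is read from them. These 10 genes, of 36799 genes and transcripts on the array, had 23 probes between them. The filter asked that a probe be well above background in every control channel or in every RL channel, and 17 probes of 8 genes passed it. No probe of Igf2 or Dlk1 passed.

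The cultures came from 3 MMTV-PyMT mammary tumors with separate codes, numbered 1, 2 and 3 here, in which a mouse mammary tumor virus promoter drives the polyoma middle T antigen in mammary epithelium. The labels call them primary tumor cultures, grown with serum, cholera toxin, insulin and EGF, while the methods describe cultures of this kind as seeded on matrigel from tumor transplants. From each tumor, 1 culture was treated with RL for 24 h, at 1000 µg/mL by the label and at a lower dose by the methods, and 1 was an untreated control. Both RNAs of a tumor were hybridized on 1 Agilent array, with RL in Cy3 and control in Cy5 for tumors 1 and 3 and the dyes exchanged for tumor 2. The labels of these arrays give neither strain nor age, and the methods give C57BL/6 as the background of the PyMT mice whose tumor cells were transplanted. All 8 luminal epithelial markers examined (Epcam, Krt8, Krt18, Krt19, Cdh1, Elf5, Gata3 and Cldn3) passed the filter, so the cultures expressed the genes that define luminal epithelium. With 1 culture per tumor and condition, the 3 arrays are the replicates, and their number limits the precision.

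Imprinted genes are expressed mainly from the copy inherited from 1 parent, and many of them set the pace of fetal growth. H19 is a maternally expressed non-coding RNA that lies beside the paternally expressed growth factor gene Igf2 and shares enhancers with it, while Igf2r, Cdkn1c and Grb10 act as brakes on growth. H19 is also the host transcript of miR-675, and in the mammary gland its expression is hormone-responsive.

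The microRNA carried by H19 is shown because it is made from that RNA. Its hairpin of 84 bases lies on the minus strand at chr7:142577064-142577147 of GRCm38.p6, as given by RefSeq, and holds both mature arms, which are in capitals. In the 5p and 3p arms, 22 bases each, capitals mark the seed (bases 2 to 8). The 2 seeds differ. No probe on the array is named for this microRNA, so its level was not measured here.
Mir675 hairpin: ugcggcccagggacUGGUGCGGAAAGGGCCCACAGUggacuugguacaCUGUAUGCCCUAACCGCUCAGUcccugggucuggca
mmu-miR-675-5p: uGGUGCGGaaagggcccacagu
mmu-miR-675-3p: cUGUAUGCccuaaccgcucagu

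H19 had 5 probes, each well above background in all 6 channels and with no saturated or outlier spot. Before any correction, the probe A_30_P01021588, the brightest of the 5 and the one that represents the gene, read a median signal of 1406 in the control and 345.5 in the RL channel of tumor 1, over local backgrounds of 70.0 and 36.0. It read 1767.5 and 2716.5 in tumor 2, where the dyes were exchanged, and 3890 and 1137 in tumor 3. Raw signals carry the dye as well as the treatment, since Cy5 was the brighter channel on these arrays, and only the normalized values below are compared. After normalization its log2 level was 10.07 in the control and 9.0 in the RL culture of tumor 1, 11.30 and 10.97 in tumor 2, and 11.42 and 10.51 in tumor 3. In each tumor the RL culture was the lower of the pair, but across tumors the conditions overlapped, because the RL cultures of tumors 2 and 3 were above the control culture of tumor 1.

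As log2 RL over control, this probe gave -1.07, -0.34 and -0.91 in tumors 1, 2 and 3, a mean of -0.77 ± 0.22 (SE, n = 3 arrays). On the linear scale the RL culture held 47.6%, 79.2% and 53.2% of the control level. The difference was smallest in tumor 2, the array with the opposite dye order, so a difference between tumors and an effect of the dye cannot be told apart for this array. With a dye term beside the RL term, the estimate was -0.66.

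The other 4 H19 probes were also lower with RL on every array. A_30_P01025068 gave -0.52, -0.29 and -0.54 in tumors 1, 2 and 3, and A_30_P01026972 gave -0.56, -0.34 and -0.42. A_30_P01028007 gave -0.66, -0.49 and -0.64, and A_30_P01028827 gave -0.40, -0.56 and -0.48. All 15 values were thus below 0, and the last of these probes was the only one whose difference was largest in tumor 2. Averaged over the 5 probes, tumors 1, 2 and 3 gave -0.64, -0.40 and -0.60, a mean of -0.55. The probe means ran from -0.77 to -0.44, so the brightest probe gave the largest difference of the 5 and the gene-level value depends on which probe stands for it. The probes share 1 target RNA and are not replicates of the treatment. In place of loess, centring each array on its median left 12 of the 15 values below 0, and 3 probes, the brightest among them, were then above 0 in tumor 2.

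**Figure D1:**
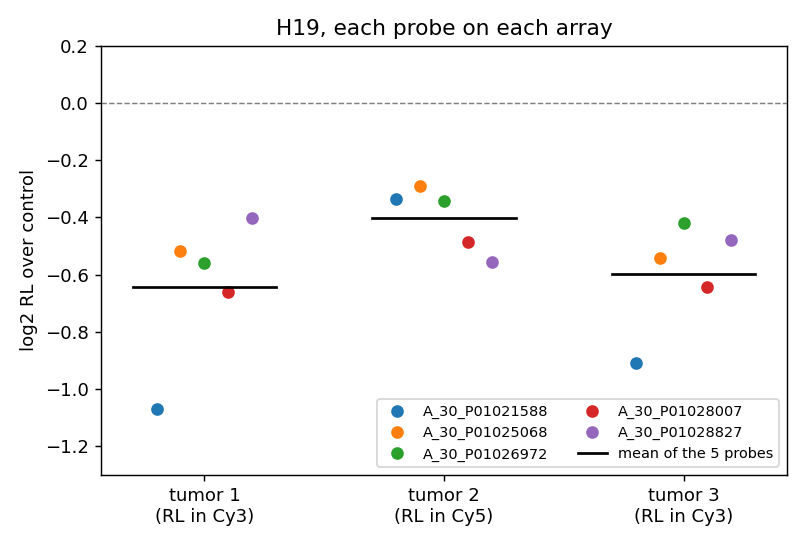
The log2 RL over control of each of the 5 H19 probes (colored points) on each of the 3 arrays, with the dye that labeled RL under each tumor and the mean over probes as a black bar. All 15 points lie below 0, with probe means per tumor of -0.64, -0.40 and -0.60.

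H19 also differed between the tumors, a measure that the choice of members did not use. The mean log2 level of both channels, which does not depend on the dye order, came to 9.54, 11.14 and 10.97 in tumors 1, 2 and 3 for the brightest probe. Tumor 1 was therefore the lowest, 3.03-fold below tumor 2 and 2.70-fold below tumor 3. All 5 probes gave this order, with tumor 2 higher than tumor 1 by 1.28 to 1.60 on the log2 scale and tumor 3 higher than tumor 1 by 1.15 to 1.43. Tumors 2 and 3 were closer to each other, with tumor 3 minus tumor 2 between -0.26 and -0.13. The range over the 3 tumors, 1.60, compares with a median of 0.27 over all 21743 genes tested, and 2.98% of those genes had a range at least as large. Each tumor gave 1 pair of cultures on 1 array, so a difference between tumors, cultures and arrays cannot be told apart, and no test was made.

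Markers of other cells that a tumor culture could hold also differed between the tumors. Of 6 basal or myoepithelial markers, 5 passed the filter (all but Myh11), with Krt14 the brightest, and their summed intensity in the control cultures came to 34037, 70739 and 99552 in tumors 1, 2 and 3. In the RL cultures the sums were 34712, 64566 and 74984, so tumor 1 was the lowest in both conditions, as it was for H19. By gene, the mean level of both channels was lowest in tumor 1 for 4 of the 5 (Acta2, Krt14, Krt5 and Trp63), while Oxtr was highest there, with 9.15, 8.26 and 7.34 in tumors 1, 2 and 3. All 10 fibroblast markers passed, with Col1a1 the brightest. Their sums were 10310, 5938 and 19866 in the control and 8500, 6262 and 19536 in the RL cultures, with tumor 2 the lowest, but the list was split. Of the 10 genes, 5 (Fap, Lum, Pdgfra, Pdgfrb and Postn) were lowest in tumor 1, as H19 was, and the bright collagen genes Col1a1 and Col1a2 were lowest in tumor 2. As log2 RL over control, the basal sums gave 0.03, -0.13 and -0.41 in tumors 1, 2 and 3, and the fibroblast sums gave -0.28, 0.08 and -0.02. Neither sum was lower with RL in all 3 tumors, but the sums follow the brightest genes, for the basal list Krt14 (0.05, -0.14 and -0.47). By gene, 9, 3 and 5 of the 10 fibroblast genes and 2, 2 and 3 of the 5 basal genes were below 0 in tumors 1, 2 and 3. Of these, 1 fibroblast gene, Pdgfra, was lower in each (-0.38, -0.15 and -0.04), and 0 basal genes were, where 13.3% of all genes were. With median centring no marker was lower in each. Without background correction Krt14 was lower in each beside Pdgfra, but Krt14 was not in the other settings counted. The luminal sums gave -0.31, 0.17 and -0.40 but followed Krt18 (-0.72, 0.42 and -0.70), by far the brightest, while 2, 7 and 5 of the 8 luminal genes were below 0 in tumors 1, 2 and 3, so the sum does not stand for the list. Fewer cells of a type and less RNA per cell cannot be told apart in such cultures, and the part of these cells in the H19 values was not tested. Of 4 adipocyte markers 1 passed, Fabp4, whose intensity was 173, 682 and 358 in the control and 209, 656 and 431 in the RL cultures. By the mean level of both channels Fabp4 had the tumor order of H19, with a larger range of log2 level, 1.81. In the control cultures alone the brightest H19 probe was highest in tumor 3 (11.42, and 11.30 in tumor 2), while Fabp4 was highest in tumor 2 (9.41, and 8.48 in tumor 3). Of 5 skeletal muscle markers, a tissue rich in H19, 1 passed, Acta1, with mean log2 levels of 6.45, 6.92 and 6.87, again lowest in tumor 1, and Ckm, Myh4, Myl1 and Myod1 did not pass. Of 5 endothelial markers 2 passed, with Kdr the brighter, and both were highest in tumor 1. Of 6 leukocyte markers 5 passed, and only the brightest, Itgam, was lowest in tumor 1. Of the 8 luminal markers 0 were lowest and 5 highest in tumor 1, so the luminal and endothelial markers did not have the tumor order of H19. The share of all genes lowest in tumor 1 is not given here, so the counts of markers lowest or highest there are a description only.

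Igf2, the growth factor gene beside H19, had 1 probe, and it was not well above background in any of the 6 channels. Its median signal in tumor 1 was 75.5 in the control channel over a local background of 70.0, and 31.5 in the RL channel over 31.0. It read 31.0 over 35.0 in the control and 79.0 over 73.0 in the RL channel of tumor 2, and 72.0 over 72.0 and 29.0 over 36.0 in tumor 3. No ratio is given for it, and whether Igf2 differed with RL or between tumors could not be measured with this probe. Of the neighbors listed for this cluster, Mrpl23, a mitochondrial ribosomal protein gene, had a log2 RL over control of -0.002, -0.03 and 0.17 in tumors 1, 2 and 3, and Lsp1, a leukocyte protein gene, -0.19, -0.28 and 0.003. Lsp1 was lower on all 3 arrays without background correction, with the scanner's processed signals and without spatial loess. It was not with median centring or with the authors' log2 ratios. Ins2, a dim neighbor, gave -0.04, 0.04 and -0.08.

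Igf2r, which encodes the receptor that clears IGF2 from the cell surface, had 1 probe printed in 10 spots. Its log2 level was 12.23, 12.02 and 11.99 in the control cultures of tumors 1, 2 and 3, and 11.97, 12.17 and 11.77 in the RL cultures. The log2 RL over control was -0.26, 0.15 and -0.22, a mean of -0.11 ± 0.13 (SE, n = 3). The sign followed the dye order, with tumor 2 alone above 0. The mean moved to -0.04 with a dye term, to -0.27 with median centring, and ran from -0.24 to -0.03 when 1 tumor was left out. The SD between the 10 spots was 0.06, 0.03 and 0.08 on the 3 arrays. Spots of 1 array show technical spread only, so this SD is no measure of the spread between tumors. Its level had the smallest range over tumors of the 8 members, 0.22.

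Cdkn1c, which encodes the cyclin-dependent kinase inhibitor p57, was measured by 1 probe at log2 levels of 9.20, 9.31 and 8.76 in the control and 9.03, 9.27 and 8.75 in the RL cultures. The log2 RL over control was -0.18, -0.05 and -0.01, a mean of -0.08 ± 0.05 (SE, n = 3). The pairs nearly coincided in tumors 2 and 3. Of the other CIP/KIP and INK4 inhibitors of the cell cycle, all were measured, and with Cdkn1c they made 7 genes with a median of -0.05, of which 2 were lower on all 3 arrays (Cdkn1c and Cdkn2c) and 0 higher, where 13.3% of all genes were lower and 14.2% higher. The count of 2 became 1 without background correction, without spatial loess and with the authors' log2 ratios, and 0 with processed signals and with median centring. Cdkn1a gave 0.23, -0.18 and -0.21, Cdkn1b 0.01, 0.13 and -0.18, and Cdkn2b -0.35, 0.07 and -0.07, so each of these differed in sign between arrays.

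Plagl1, a zinc finger transcription factor gene that regulates other imprinted genes, had 4 probes, all of which passed. The brightest, A_55_P1961968, read 10.36, 11.12 and 10.94 in the control and 10.23, 11.07 and 10.72 in the RL cultures of tumors 1, 2 and 3, with a log2 RL over control of -0.13, -0.05 and -0.22 and a mean of -0.13 ± 0.05 (SE, n = 3). The probes disagreed about the tumors. Tumor 2 minus tumor 1 was 0.81 for this probe and 0.78 for A_52_P532456, but -1.67 for A_55_P1961965, which was thus 3.18-fold higher in tumor 1, and -0.06 for A_55_P2153251. The mean log2 RL over control of the 4 probes ran from -0.22 to -0.04, with A_55_P1961965 at the low end. That probe and the brightest were lower on all 3 arrays, while A_52_P532456 (-0.14, 0.06 and -0.19) and A_55_P2153251 (-0.11, -0.08 and 0.06) were of mixed sign.

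Peg3, which encodes a zinc finger protein expressed from the paternal copy, passed with 2 dim probes. The brighter one had levels of 7.30, 7.66 and 7.09 in the control and 7.37, 7.59 and 6.99 in the RL cultures, and its log2 RL over control was 0.07, -0.07 and -0.10. Mest, a paternally expressed gene of the hydrolase fold family, had 3 probes, of which 2 passed. Its brightest probe, printed in 10 spots, gave -0.06, 0.05 and -0.03, with an SD between spots of 0.10, 0.13 and 0.12. For these probes of both genes the sign differed between arrays. The SD between spots is that of single spots and technical only, while each value of Mest is a mean over spots, so the 2 are not compared. The other passing probe of Mest, A_55_P2090025, gave -0.17, -0.02 and -0.09 and was thus lower on all 3 arrays, so the probes of Mest did not give 1 pattern.

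Grb10, an adaptor that dampens insulin and IGF receptor signaling, read 8.12, 6.94 and 7.18 in the control and 8.22, 6.91 and 7.36 in the RL cultures. It was highest in tumor 1, the reverse of H19, and its log2 RL over control was 0.10, -0.03 and 0.18, with a mean of 0.08 that turned to -0.07 with median centring. Meg3, a maternally expressed non-coding RNA, had 3 probes, and the 1 that passed read 6.94, 6.85 and 8.03 in the control and 7.0, 6.67 and 7.99 in the RL cultures. It was highest in tumor 3, and of its other probes, A_55_P2033407 was well above background in tumor 3 alone, in both channels. The log2 RL over control of Meg3 was 0.06, -0.17 and -0.04. It was below 0 on all 3 arrays with median centring, without spatial loess and with the authors' log2 ratios. Dlk1, a paternally expressed Notch-like ligand of the same cluster, had 2 probes. A_55_P2105371 was not well above background in any channel, and A_66_P117477 was well above background in 3 of 6, both channels of tumor 2 and the control of tumor 3, so no ratio is given.

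**Figure D2:**
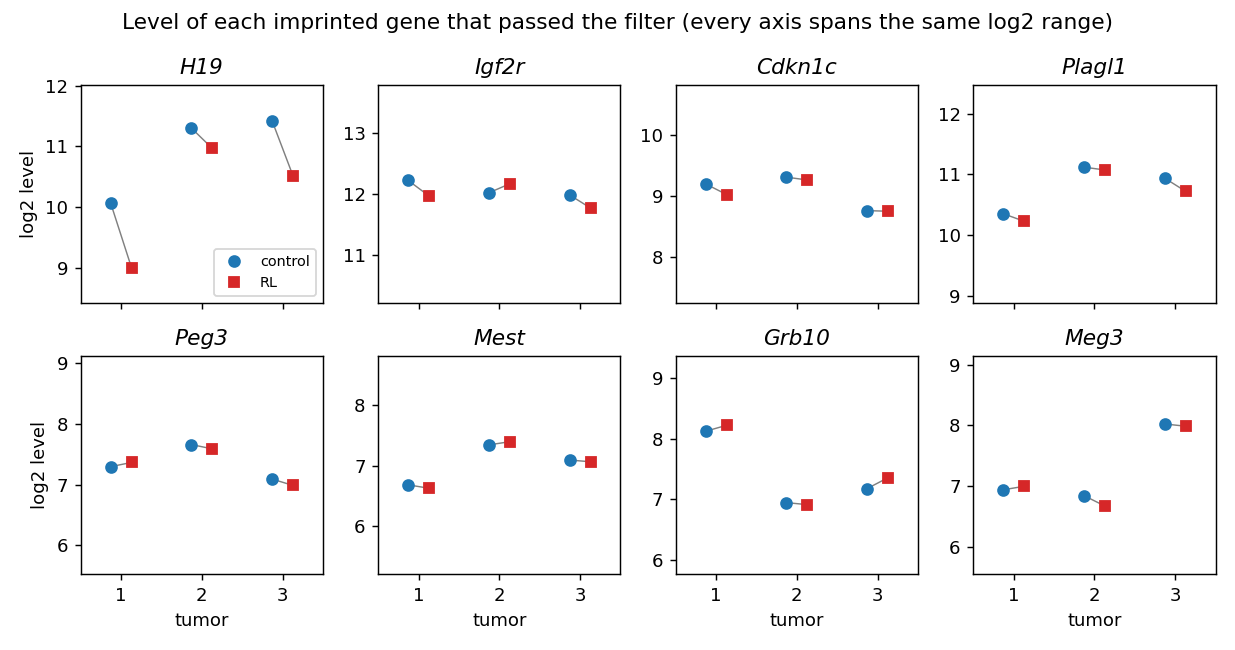
Normalized log2 level in the control (circles) and RL culture (squares) of each tumor for the 8 imprinted genes that passed the filter, 1 probe per gene, with all vertical axes spanning the same log2 range. H19 is lower in the RL culture of each pair and lowest in tumor 1, Grb10 is highest in tumor 1 and Meg3 in tumor 3; levels of different genes come from different probes and are not comparable.

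The members did not share an order of the tumors. The range of the log2 level over tumors was 1.60 for H19, 1.25 for Meg3, 1.24 for Grb10, 0.81 for Plagl1, 0.71 for Mest, 0.59 for Peg3, 0.53 for Cdkn1c and 0.22 for Igf2r. With the scanner's processed signals the order turned, with 2.24 for Meg3 and 2.01 for Grb10 above 1.68 for H19, and Mest reached 1.32. All but Igf2r were above the median of all genes tested, 0.27, and the median of the 8 was 0.76. H19, Mest and, by its brightest probe, Plagl1 were lowest in tumor 1, while Peg3 and Cdkn1c, like Igf2r, were lowest in tumor 3. A range over tumors cannot be negative, while opposite signs cancel in a mean log2 RL over control, so the 2 measures are not compared.

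**Figure D3:**
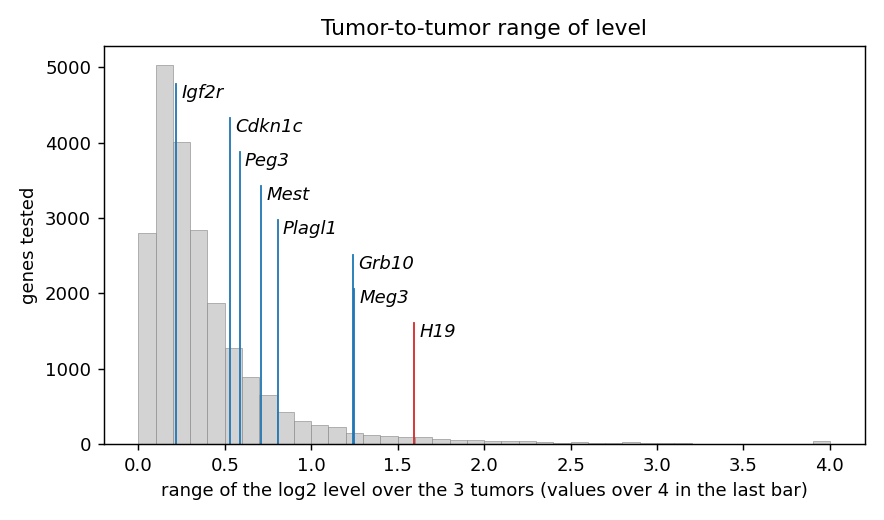
Histogram of the range of the log2 level over the 3 tumors for the 21743 genes tested (bars, number of genes), with the 8 imprinted genes as vertical lines. H19 lies at 1.60, Meg3 and Grb10 near 1.24, and Igf2r at 0.22, below the median of all genes of 0.27.

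Over the 8 members that passed the filter, 3 were lower with RL on all 3 arrays (H19, Cdkn1c and, by its brightest probe, Plagl1), 0 were higher on all 3, and 5 were mixed, with a median log2 RL over control of -0.06. Cdkn1c was of mixed sign in each of the 5 other settings counted. With median centring in place of loess, 1 of the 8 was lower on all 3 arrays, Meg3, while H19, above 0 in tumor 2 (0.23), and Plagl1 were not, and the median of all genes moved by -0.11, which also lowered the median of each list described below. Among all genes tested, 13.3% were lower on all 3 arrays and 14.2% higher, with a median of -0.000548. By limma with Benjamini-Hochberg adjustment at 0.05, 0 of the 8 were called, where 0.0276% of all genes were called. By rank product at a proportion of false positives (pfp) under 0.05, 1 of the 8, H19, was called lower, where 0.235% of all genes were. With a dye term in limma the same 1 gene was called, where 1.05% of all genes were. The members were selected on this contrast, so nothing is read from these counts.

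**Figure D4:**
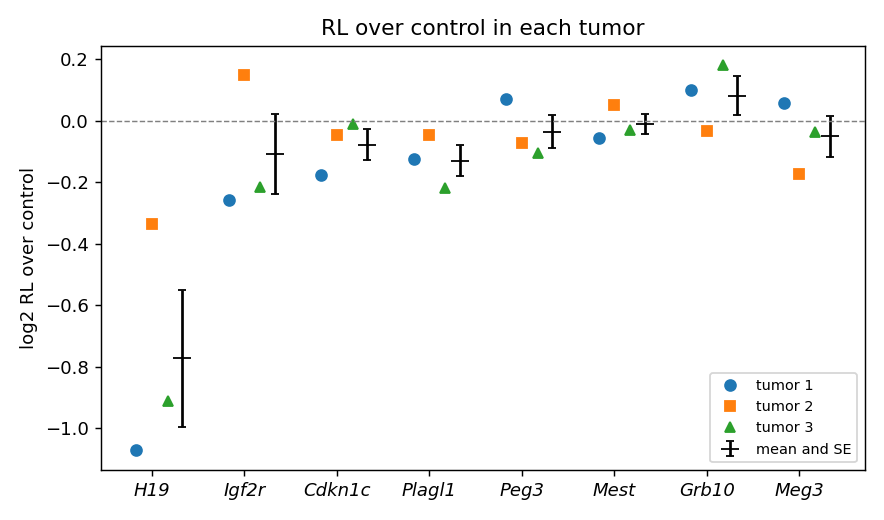
Log2 RL over control of the 8 imprinted genes in tumor 1 (circles), tumor 2 (squares) and tumor 3 (triangles), with the mean and SE over the 3 arrays in black. H19 lies between -1.07 and -0.34, and all values of the other 7 genes lie between -0.26 and 0.18.

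H19 was selected on RL, and the list of genes around the members in their imprinted clusters was drawn up with earlier results of these data known. The values of these neighbors are a description and are not set against that of H19. Of 38 such neighbors, 36 were on the array and 24 passed the filter, with a median log2 RL over control of -0.02 and values from -0.16 to 0.14. On all 3 arrays 2 were lower and 3 higher, where 13.3% and 14.2% of all genes were, and none was called by limma, the rank product or the dye term. Wdr25, near Dlk1 and Meg3, gave -0.01, -0.22 and -0.10, and Cd81, in the Cdkn1c cluster, gave -0.31, 0.16 and -0.14. Osbpl5, of the same cluster, gave 0.03, -0.07 and 0.32, so the last pair changed sign between arrays. With median centring, none of the neighbors was of 1 sign on all 3 arrays. Of 34 other imprinted genes, 23 passed, 6 were lower and 3 higher on all 3 arrays (0 and 0 with median centring; 13.3% and 14.2% of all genes), the median was -0.05 and none was called by the same 3 rules. Gnas, which encodes the stimulatory G protein alpha subunit, gave -0.03, -0.22 and -0.32, Snrpn, a splicing factor gene, -0.12, -0.09 and -0.27, and Inpp5f, an inositol phosphatase gene, 0.08, 0.19 and 0.23. H13 gave -0.18, -0.04 and -0.11, and Commd1, of mixed sign, 0.09, -0.06 and 0.10.

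The IGF axis, which several members feed into, was described from a list of 21 genes, of which 18 passed the filter. The median was -0.04, with 6 lower and 2 higher on all 3 arrays, where 13.3% and 14.2% of all genes were, and limma called none. With median centring 0 were higher and 2 lower, Igfbp7 and Igfbp6, which was not among the 6. Igfbp5, a secreted IGF-binding protein known from mammary involution, had a log2 RL over control of -0.82, -0.42 and -0.69, a mean of -0.64 ± 0.12 (SE, n = 3). It was lower in 3 of 3 tumors, but not in all 3 with median centring, where the mean was -0.86. As this list was chosen with earlier results of these data known, nothing is read from its calls. Igfbp5 was called lower by the rank product (pfp = 0.00122), where 0.235% of all genes were, and by the dye term, where 1.05% were called. It was not called by limma (adjusted p = 0.0763), where 0.0276% of all genes were called. Its mean log2 levels of 16.04, 15.33 and 13.78 in tumors 1, 2 and 3 gave another order of the tumors than those of H19, with tumor 1 the highest. Among the 7 binding proteins, 6 passed and 5 were lower on all 3 arrays (13.3% of all genes), Igfbp2 with a mean of -0.24 and Igfbp4 with -0.17 beside Igfbp5. With the scanner's processed signals 3 were (Igfbp2, Igfbp4 and Igfbp5). With median centring 2 were, Igfbp7 and Igfbp6, which was not among the 5, while Igfbp2, Igfbp4 and Igfbp5 were not. The adaptors Irs1 and Shc1 had means of -0.19 and 0.02, with signs that differed between arrays. Irs1 gave -0.52, 0.13 and -0.19, and its mean ran from -0.35 to -0.03 when 1 tumor was left out. The mean over the probes of Irs1 was -0.08. For Shc1, leaving out 1 tumor gave -0.02 to 0.05.

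Genes that maintain imprints or process H19 into miR-675 made a list of 23, of which 20 passed. None was lower on all 3 arrays (1 was with processed signals or the authors' log2 ratios), 3 were higher (Uhrf1, Ezh2 and Drosha; none with median centring), where 13.3% of all genes were lower and 14.2% higher, the median was 0.00 and none was called by limma, the rank product or the dye term. Uhrf1, which helps copy DNA methylation at replication, gave 0.48, 0.12 and 0.10, Ezh2, a histone H3 methyltransferase, 0.16, 0.11 and 0.10, and Drosha, the nuclease that releases microRNA hairpins, 0.14, 0.03 and 0.01. With median centring the means of Ezh2 and Drosha turned to -0.04 and -0.07. Elavl1, an RNA-binding protein gene, gave 0.39, -0.18 and 0.35, and Mbd3 0.22, -0.20 and -0.15, so these genes were of mixed sign.

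Response genes of RANK and milk protein genes show how the same cultures behaved beside H19. Of 9 RANK pathway genes, 6 were higher (3 with median centring) and 0 lower on all 3 arrays, where 14.2% and 13.3% of all genes were, with a median of 0.49. The rank product called 3 of them higher (Nfkb2, Nfkbia and Traf1), where 0.166% of all genes were, the dye term called 6, where 1.05% of all genes were, and limma called none. The inhibitor gene Nfkbia gave 1.47, 0.47 and 0.38, Nfkb2 1.25, 0.43 and 0.20, Relb 1.15, 0.29 and 0.21, and Traf1 1.14, 0.31 and 0.65. Of 6 milk protein genes measured, all 6 were lower on all 3 arrays (3 with median centring), where 13.3% of all genes were, with a median of -0.59. Here limma called 3 of them (Lalba, Wap and Csn1s1), where 0.0276% of all genes were called, but called no gene at all with processed signals or with median centring. The rank product and the dye term each called 4, the same 3 and Csn2, where 0.235% and 1.05% of all genes were called. Nfkbia was highest over control in tumor 1, while Lalba, with -1.39, -1.88 and -1.24, had its largest difference in tumor 2. The ratios of H19 were selected on and its probes differed in which tumor was lowest, so these orders are not set against H19.

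The genes whose pattern was nearest to that of H19 were found by Euclidean distance over the 6 channels, on log2 levels centred on each gene's own mean, among 14028 named genes. The nearest were 1600025M17Rik at a distance of 0.60, Saa1, an acute-phase apolipoprotein gene, at 0.70, Ptgs1, the cyclooxygenase-1 gene, at 0.73, Serpinf1, which encodes pigment epithelium-derived factor, at 0.77, and Postn, the matrix protein periostin, at 0.84. By this choice they resemble H19 across tumors, with tumor 1 the lowest in both conditions and a range over tumors of 1.36 to 1.61, so nothing is read from that likeness. The RL channels were part of the distance, so the log2 RL over control also entered the choice, and nothing is read from it. In tumors 1, 2 and 3 it was -0.50, -0.44 and -0.38 for 1600025M17Rik and -0.97, -0.24 and -0.40 for Saa1. Ptgs1 gave -0.54, -0.04 and -0.15, and Serpinf1 gave -0.39, 0.002 and -0.20. The mean of 1600025M17Rik, -0.44, moved to -0.80 with processed signals and to -0.62 with a normexp offset of 10 or with the authors' log2 ratios. Postn, which is also in the fibroblast list, gave -0.45, 0.00 and 0.04, so the likeness to H19 rested there on the tumors and less on RL.

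**Figure D5:**
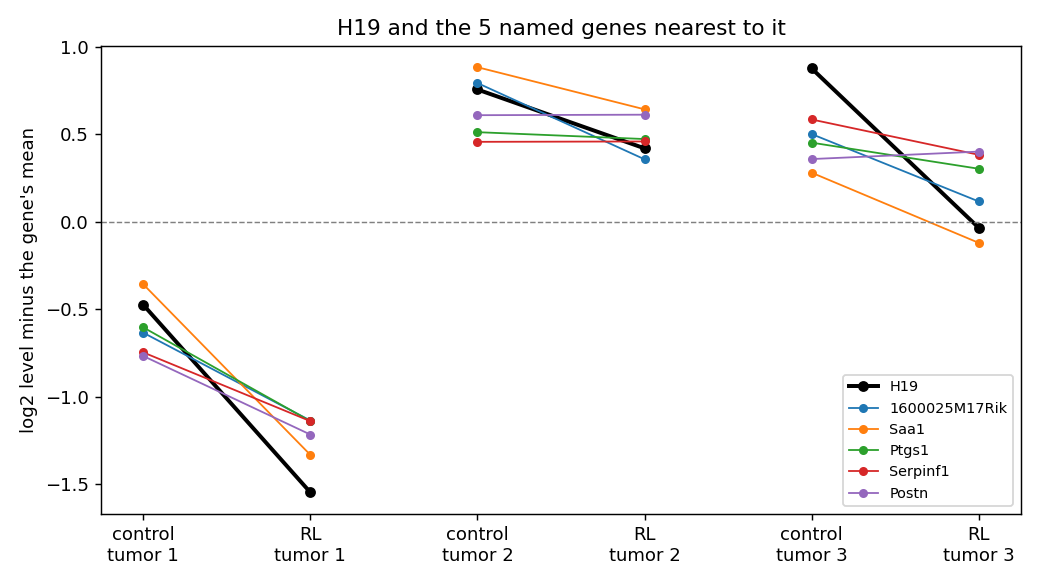
Log2 level minus the gene's own mean in the control and RL culture of each tumor for H19 (thick black line) and the 5 named genes nearest to it, with the pair of each tumor joined by a line. All 6 genes are lowest in tumor 1, and H19 was selected on its drop from control to RL, so the drops are not ranked.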

How the data were processed

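The authors scanned the arrays with Agilent Feature Extraction 10.7.3.1 (submitters' processing notes) and deposited median spot and local background intensity per dye, processed intensity and a table of normalized log2 ratios. The deposited log2 ratios are Cy5 over Cy3 (r of 0.963, 0.956 and 0.962 with the values here after turning), centred near 0 (medians 0.00329, 0.000361 and 0.000888) and, by the methods, made with normexp, spatial and intensity loess and Aquantile, the steps also used here; the normexp offset is not stated. No mean signals were at hand, so medians were used, in R 4.3.3 with limma 3.58.1: normexp (offset 50) on all spots, control spots then dropped, intensity loess, spatial loess (span 0.1), Aquantile, outlier spots left out and spots of a probe averaged. A log2 level is the normalized log2 intensity of a channel. The brightest passing probe represents a gene. Accessions matched 28026 of 55681 probes to RefSeq symbols (GRCm38.p6), and 13 more probes, all 5 of H19 included, were named by a symbol in the file. Ratios were fitted with lmFit and eBayes, and rank products used 1000 permutations. P-values of limma without the dye term measure the spread between 3 tumors. With the dye term, the only array with RL in Cy5 is fitted exactly. The spread behind the calls of that fit is thus the one between tumors 1 and 3 alone. The pfp of the rank product comes from permutations and is no measure of the spread between tumors. All arrays shared 1 slide. The members and lists were chosen with earlier results of these data known. The rule for named genes took the members, in each list the 3 genes highest in level and the 3 with the largest ratio of 1 sign, and the 5 nearest to H19; some markers and called genes are also named, and not every gene under the rule has its values printed. The analysis code was tested on simulated data. Alternatives are given with their effects in the closing section.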

Additional observations from a re-analysis of the deposited data

How the results depend on the processing

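The log2 RL over control of H19, on which it was selected, was unchanged under 4 of 15 alternatives (no Aquantile, both other filters and outlier spots kept), and the other 11 gave -0.99 to -0.55, each within 1 SD of the value reported. The highest came from the mean over its probes, and leaving out 1 tumor gave -0.99 to -0.62. The numbers of genes past the threshold, 1 higher and 5 lower, depended on the processing. They were 6 and 12 without background correction, 6 and 11 with a normexp offset of 10, 0 and 0 with the scanner's processed signals, and 0 and 0 with median centring. With no filter on dim probes they were 0 and 3, with probes well above background in all 6 channels 0 were higher, and with the authors' log2 ratios 2 were higher. The rank product gave 36 higher and 51 lower, and the dye term 99 and 130. Leaving out 1 tumor gave from 0 to 494 higher and from 2 to 793 lower, the highest without tumor 2, when RL is Cy3 on both arrays left and dye and RL cannot be told apart. The cause of these shifts was not tested. Median centring moved the median of all genes by -0.11. For the other 7 members, 31 of 105 values were unchanged, 70 of the other 74 moved by less than 1 SD, and 4 moved by more, all with median centring, where Grb10 turned to -0.07, Meg3 gave -0.19, Plagl1 -0.27 and Cdkn1c -0.18. The range of level over tumors moved by more than 1 SD in 4 of 16 values, with processed signals for Meg3 (2.24), Grb10 (2.01) and Mest (1.32), beside 1.68 for H19, and without Aquantile for Igf2r (0.09). A slide block was not run, because all arrays lie on 1 slide. Signal over background limits Igf2, Dlk1, Peg3, Mest, Grb10 and Meg3, which lie near background in at least 1 tumor, and the 3 arrays, only 1 of them with RL in Cy5, limit every estimate.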
